A study of Mus musculus with 12 samples.

Results

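Small heat shock proteins are chaperones that hold unfolding proteins in a soluble state without using ATP, and Bag3 is a co-chaperone that links one of them, Hspb8, to HSP70. The genes described here are the 7 small heat shock proteins Hspb1, Hspb2, Hspb3, Hspb6, Hspb7, Hspb8 and Cryab, together with Bag3. Every probe set that the array annotation assigns to one of these 8 genes alone was taken, which gave 15 of 45101 features, and 14 of the 15 passed the filter on low signal. The rule for the probe sets uses no measured value, while the genes were picked with earlier results of these data known.

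The samples were left ventricles of 12 mice of the C57BL/6 strain, 8 to 9 weeks old, and the RNA of each mouse was read on 1 Affymetrix mouse array. Transgenic ILKR211A hearts (n = 3) over-expressed human integrin-linked kinase with a point mutation in its pleckstrin homology domain that makes it resistant to activation. Transgenic ILKS343D hearts (n = 3) over-expressed human integrin-linked kinase with a constitutively active mutation, and both transgenes were expressed specifically in the heart. Wild-type (WT) littermates (n = 6) formed the control group for both lines. The WT mice carry 2 series of replicate numbers, named the first and the second set here, with 3 mice in each, and no source used here ties a set to a line. The ILKS343D hearts and the first WT set have heart numbers from 1 to 6, and the ILKR211A hearts and the second WT set have numbers from 7 to 12. WT first set replicate 1 is labelled male and the other 11 mice female. The methods describe groups with and without infarction, whereas the labels name no surgery. The number of independent founders behind each line is not given in the sources used here.

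In striated muscle the small heat shock proteins bind to Z-discs, titin and intermediate filaments, above all when the tissue is stretched, heated or short of oxygen. Heat shock factor 1 switches on Hspb1, Cryab, Hspb8 and Bag3 under stress, whereas Hspb2, Hspb3, Hspb6 and Hspb7 are known mainly as muscle proteins present without stress. Hspb8, Bag3, Hsc70 (Hspa8) and the ubiquitin ligase Stub1 form the complex of chaperone-assisted selective autophagy, which clears damaged filamin from the Z-disc.

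The promoters of the members are shown for the repeat to which heat shock factors bind. RefSeq promoter windows of GRCm38.p6, from 250 bases before to 50 bases after a start site, were held for 6 of the 8 members, Hspb1, Hspb3, Hspb6, Hspb7, Hspb8 and Bag3. The motif searched was GAANNTTC, a pair of inverted heat shock repeats that reads the same on both strands. It was found in 7.86% of 32851 windows, and 0.344% of windows held 2 or more. The opposite pair TTCNNGAA (8.52% of windows) and the triple repeats GAANNTTCNNGAA and TTCNNGAANNTTC (0.603% of windows each, the same sites on opposite strands, and each of them holds both pairs) were found in no window of a member. The 250 bases before the Hspb1 start, at chr5:135887669-135887918 on the plus strand, hold the motif at -117 and -97, counted from the start, and it is in capitals:
Hspb1: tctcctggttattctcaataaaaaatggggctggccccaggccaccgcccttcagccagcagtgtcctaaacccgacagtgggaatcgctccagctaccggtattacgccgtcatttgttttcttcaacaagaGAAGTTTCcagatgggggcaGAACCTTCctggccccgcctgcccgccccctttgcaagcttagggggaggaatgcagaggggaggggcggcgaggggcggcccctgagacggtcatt
The windows of Hspb3, Hspb8 and Bag3 and that of the second Hspb6 start hold the motif once, at -224, 3, 43 and -120, and the windows of Hspb7 and of the first Hspb6 start do not hold it. The 30-base stretches with the motif in capitals lie at chr13:113663882-113663911 (minus strand) for Hspb3, chr7:30553170-30553199 (plus strand) for Hspb6, chr5:116422844-116422873 (minus strand) for Hspb8 and chr7:128523603-128523632 (plus strand) for Bag3:
Hspb3: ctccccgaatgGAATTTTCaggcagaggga
Hspb6: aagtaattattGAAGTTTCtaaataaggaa
Hspb8: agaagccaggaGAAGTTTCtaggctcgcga
Bag3: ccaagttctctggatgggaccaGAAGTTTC
Hspb1 was thus the one member whose window held the motif more than once. A match describes the letters and was not tested as a binding site.

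The values are MAS5 signals, an intensity that the authors scaled to the same trimmed mean of 150 on each array, and median signals lay between 41.5 and 49.1. Ilk itself, which checks the labels, read 8223 to 9553 in ILKR211A hearts, 3258 to 4016 in ILKS343D hearts and 551 to 657 in WT hearts, so the groups stood apart. Cardiomyocyte markers (7 of 7 tested) summed to between 69881 and 78593 in ILKR211A hearts, 64429.7 and 71332.5 in ILKS343D hearts and 67415.5 and 81042 in WT hearts, and Actn3, Myh4, Myh1, Tnnt3 and Mylpf of fast skeletal muscle were below the limit. Atrial markers summed to between 1835 and 20842.5 over the 12 hearts and varied within each genotype, with 2608 to 20084 in ILKR211A hearts, 1835 to 20842.5 in ILKS343D hearts and 2541 to 15898 in WT hearts. Precision is limited by how many arrays each group has. Changes were tested on log2 signal with limma and Benjamini-Hochberg adjustment over the 22519 probe sets at or above the median signal of 43.5, with an adjusted p below 0.05 as the threshold.

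Hspb1 was the one member called in the values as deposited, and with quantile normalization Cryab was called as well. In ILKR211A hearts 1 of its 2 probe sets was 1.52-fold higher than in WT hearts and 1.65-fold higher than in ILKS343D hearts. No other member probe set passed the threshold in either line. Thus 1 of 14 member probe sets was called in ILKR211A against WT hearts, where 0.204% of the tested probe sets were called in either direction and 0.124% as higher. None of 14 was called in ILKS343D against WT hearts, where 0.00444% were called, and 1 of 14 was called in ILKR211A against ILKS343D hearts, where 0.16% were called and 0.0933% as higher.

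Hspb1, also known as Hsp27 or Hsp25, is stress inducible and protects actin filaments. Its probe set 1425964_x_at read 4092, 4931 and 4591 in ILKR211A hearts, 2446, 2620.3 and 3205 in ILKS343D hearts, and in WT hearts had a lowest value of 2642, a median of 2923 and a highest of 3396. All 3 ILKR211A hearts lay above all 9 others, and the ILKS343D hearts lay partly within and partly below the WT range. The mean was 4538 ± 422 in ILKR211A hearts (SD, n = 3), 2757 ± 398 in ILKS343D hearts (SD, n = 3) and 2991 ± 324 in WT hearts (SD, n = 6). The log2 fold change in ILKR211A against WT hearts was 0.60 (SE 0.0999, 95% interval 0.39 to 0.82), with an adjusted p of 0.0171 in limma. An exact permutation test gave p = 0.0119, two-sided, which is the smallest that 3 mice against 6 allow. Against ILKS343D hearts the log2 fold change was 0.72 (SE 0.115, 95% interval 0.48 to 0.97), with an adjusted p of 0.0203 in limma. In ILKS343D against WT hearts it was -0.12 (95% interval -0.33 to 0.09, adjusted p = 0.995 in limma).

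The brighter Hspb1 probe set, 1422943_a_at, read 5692, 6872 and 6393 in ILKR211A hearts, 4008, 3791 and 4594 in ILKS343D hearts, and in WT hearts 4114 at the lowest, 4457 at the median and 5807 at the highest. The highest WT value came from second set replicate 2 and exceeded the lowest ILKR211A value, so that the ILKR211A and WT groups overlapped by 1 mouse, while all ILKR211A hearts lay above all ILKS343D hearts. The log2 fold change was 0.44 against WT (SE 0.106, 95% interval 0.21 to 0.67) with an adjusted p of 0.174 in limma, and an exact permutation test gave p = 0.0357. It was 0.61 against ILKS343D (SE 0.122, 95% interval 0.35 to 0.87) with an adjusted p of 0.0801 in limma. In ILKS343D against WT hearts it was -0.17 (95% interval -0.40 to 0.05, adjusted p = 0.995 in limma). Over the 12 hearts, group differences included, the 2 probe sets had a Pearson r of 0.958. By the naming of Affymetrix, an x_at probe set holds probes that may also bind transcripts of other genes, and the share of such binding was not tested here.

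The call for Hspb1 was lost when certain single mice were left out, which also leaves a smaller group, and under some choices of processing. Without ILKR211A replicate 2 the adjusted p of 1425964_x_at against WT was 0.137 in limma (log2 fold change 0.54), and without ILKR211A replicate 3 it was 0.112 (log2 fold change 0.59). Without WT second set replicate 2 the brighter probe set was called as well, with a log2 fold change of 0.50 and an adjusted p of 0.0352 in limma. With the array medians set equal the log2 fold change was 0.64 and its adjusted p 0.0597 in limma, and with no trend in the prior variance it was 0.60 with an adjusted p of 0.0844 in limma. The call against ILKS343D hearts, but not the size of the log2 fold change, which was 0.64 to 0.84 under the alternatives, was lost without ILKR211A replicate 2 or 3 (adjusted p = 0.102 for each) and without ILKS343D replicate 1 or 2 (adjusted p = 0.122 and 0.0916 in limma), and with no trend (adjusted p = 0.0994 in limma) or with the compared groups fitted alone (adjusted p = 0.055 in limma).

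**Figure D1:**
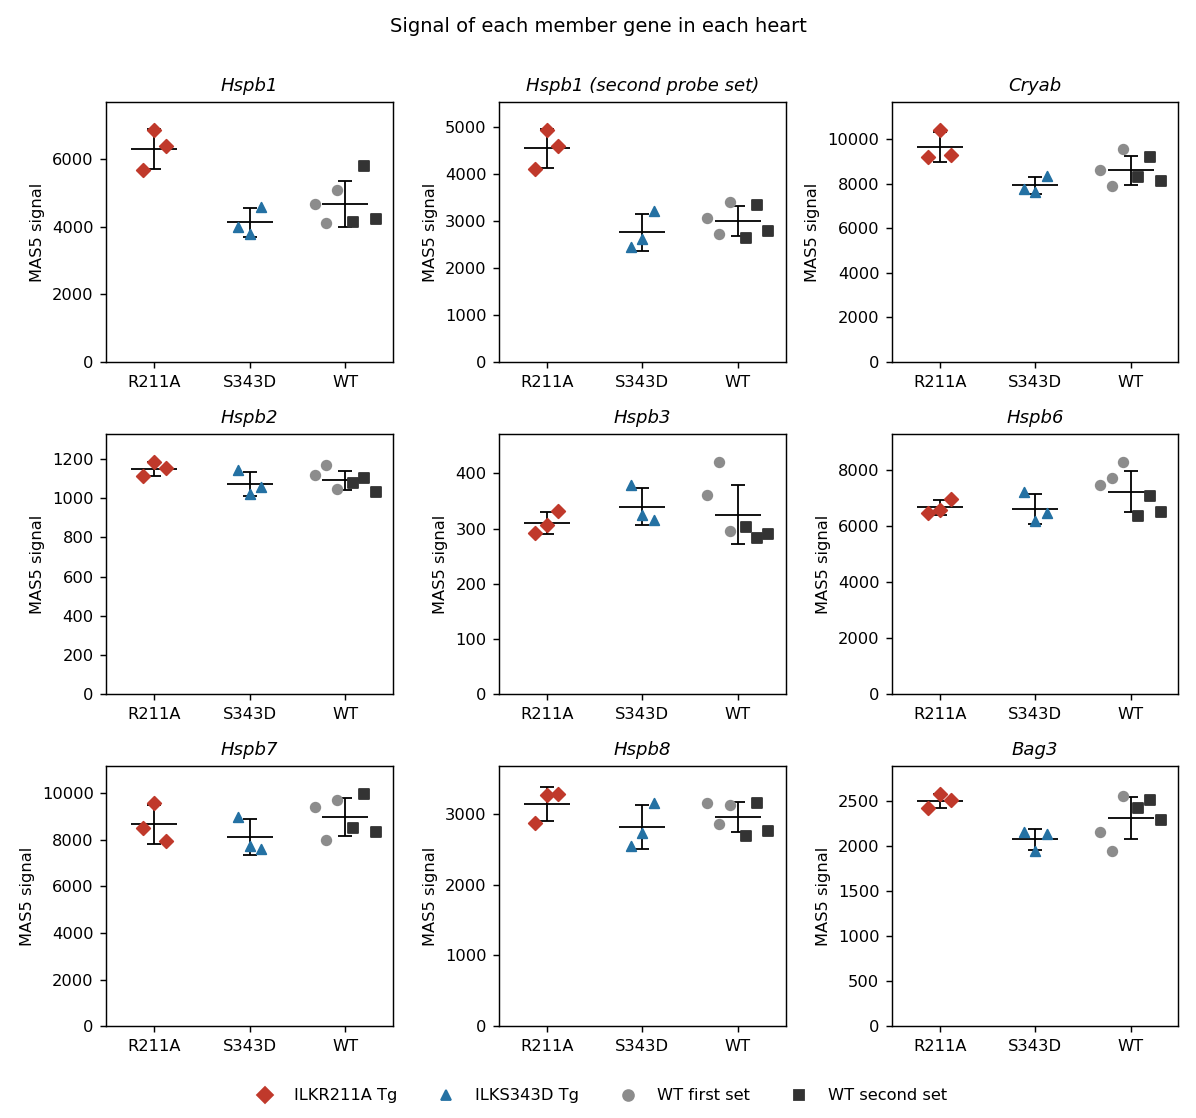
MAS5 signal (linear scale, from 0) of each member gene in each heart, with the second Hspb1 probe set beside the first; points are single mice, WT sets have their own symbols, and the bars give the mean and SD of ILKR211A (n = 3), ILKS343D (n = 3) and WT (n = 6) hearts. In the second Hspb1 probe set the 3 ILKR211A hearts lie between 4092 and 4931, above the highest WT heart at 3396, whereas the groups of most other genes overlap.

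Cryab, alpha-B-crystallin, stabilises desmin and titin and is mutated in a human desmin-related myopathy. Its probe set 1416455_a_at read 9231, 10424 and 9298 in ILKR211A hearts, 7781, 7653.5 and 8371 in ILKS343D hearts, and in WT hearts 7898 at the lowest, 8456 at the median and 9582 at the highest. The ILKR211A hearts were at the upper end of the WT range, with 1 of the 3 above it, and all of them were above all ILKS343D hearts. The log2 fold change was 0.16 against WT (SE 0.0675, 95% interval 0.02 to 0.31, adjusted p = 0.612 in limma), 0.28 against ILKS343D (SE 0.0779, 95% interval 0.11 to 0.45, adjusted p = 0.279 in limma), and -0.12 in ILKS343D against WT hearts (95% interval -0.26 to 0.03, adjusted p = 0.995 in limma).

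A second Cryab probe set, 1434369_a_at, read 7636, 8425 and 7527 in ILKR211A hearts, 6406, 6232 and 6649 in ILKS343D hearts, and between 6323 and 7369.9 with a median of 6734 in WT hearts. All 3 ILKR211A hearts lay above the other 9. The log2 fold change against WT was 0.21 (SE 0.0602, 95% interval 0.08 to 0.34) with an adjusted p of 0.309 in limma, and an exact permutation test gave p = 0.0238. Against ILKS343D hearts it was 0.29 (95% interval 0.14 to 0.44, adjusted p = 0.168 in limma). With quantile normalization this probe set was called, with a log2 fold change of 0.18 against WT (adjusted p = 0.044 in limma) and 0.22 against ILKS343D hearts (adjusted p = 0.0315 in limma), where 0.213% and 0.164% of all tested probe sets were called. The third Cryab probe set, 1435837_at, read between 17.0 and 31.7 over the 12 hearts, below the limit, and was not tested. Cryab and Hspb2 are neighbours whose spans overlap in RefSeq, and whether the probe sets of either gene read transcripts of the other was not tested.

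Hspb2, Hspb3, Hspb6 and Hspb7, the members known chiefly from muscle, had log2 fold changes between -0.15 and 0.14 in the 3 comparisons, and none was called. Hspb2, which binds the myotonic dystrophy kinase, read 1111, 1184 and 1153 in ILKR211A hearts, 1141, 1020.1 and 1059 in ILKS343D hearts, and between 1029 and 1168 with a median of 1089.8 in WT hearts. The groups overlapped, and the log2 fold change was 0.08 in ILKR211A (95% interval -0.05 to 0.20) and -0.02 in ILKS343D (95% interval -0.15 to 0.10) against WT.

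Hspb3, the partner of Hspb2 in muscle, read 292, 307 and 331 in ILKR211A hearts, 379, 325 and 316 in ILKS343D hearts, and between 283 and 421 with a median of 299.9 in WT hearts. Its coefficient of variation over WT hearts, 16.7%, was the largest among the main probe sets of the 8 members. The log2 fold change was -0.06 in ILKR211A (95% interval -0.31 to 0.20) and 0.07 in ILKS343D (95% interval -0.18 to 0.33) against WT.

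Hspb6, also named Hsp20, is phosphorylated by the cyclic AMP-dependent kinase and is known in heart and smooth muscle. It read 6449, 6568 and 6974 in ILKR211A hearts, 7214, 6156 and 6446 in ILKS343D hearts, and between 6359 and 8275 with a median of 7259 in WT hearts. The groups overlapped, with log2 fold changes of -0.11 in ILKR211A (95% interval -0.28 to 0.06, adjusted p = 0.848 in limma) and -0.13 in ILKS343D (95% interval -0.30 to 0.05, adjusted p = 0.995 in limma) against WT.

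Hspb7, the cardiovascular small heat shock protein, which binds filamin C, was read by 3 probe sets. The brightest, 1434927_at, read 8487, 9566 and 7924 in ILKR211A hearts, 8982, 7728 and 7599 in ILKS343D hearts, and between 7966 and 9945 with a median of 8961 in WT hearts. The groups overlapped, and the log2 fold change was -0.05 in ILKR211A (95% interval -0.23 to 0.13) and -0.15 in ILKS343D (95% interval -0.33 to 0.03) against WT. The other Hspb7 probe sets had log2 fold changes of -0.04 and 0.02 in ILKR211A and of -0.08 and -0.12 in ILKS343D against WT hearts, and the 3 probe sets correlated at r between 0.779 and 0.894 over the 12 hearts, group differences included.

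Hspb8, which with Bag3 delivers clients to autophagy, had 3 probe sets that gave different values. Probe set 1417013_at read 2863, 3268 and 3277 in ILKR211A hearts, 2546, 2723 and 3152 in ILKS343D hearts, and between 2685 and 3156 with a median of 2989.8 in WT hearts. Probe set 1417014_at read 2406, 2440.3 and 2558 in ILKR211A hearts, 1825, 2128 and 2292.5 in ILKS343D hearts, and between 2108 and 2378 with a median of 2271 in WT hearts. In the second of these all ILKR211A hearts were above all other hearts, and in the first they overlapped both groups. The log2 fold changes were 0.09 (95% interval -0.08 to 0.25, adjusted p = 0.886 in limma) and 0.13 (95% interval -0.02 to 0.27, adjusted p = 0.72 in limma) in ILKR211A against WT, and 0.16 (95% interval -0.03 to 0.36) and 0.25 (95% interval 0.09 to 0.42, adjusted p = 0.371 in limma) against ILKS343D hearts.

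The third Hspb8 probe set, 1456434_x_at, was dim, at 162, 216 and 198 in ILKR211A hearts, 279, 205 and 326 in ILKS343D hearts, and between 184 and 324 with a median of 204 in WT hearts. Its values had the opposite sign, with a log2 fold change of -0.20 in ILKR211A against WT, 0.28 in ILKS343D against WT and -0.48 in ILKR211A against ILKS343D hearts (95% interval -0.91 to -0.05, adjusted p = 0.558 in limma). It correlated at r = -0.251 and -0.320 with the other Hspb8 probe sets, which correlated at r = 0.687 with each other, over the 12 hearts with group differences included.

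Bag3, the co-chaperone that brings Hspb8 and Hsc70 together, read 2421, 2576 and 2507 in ILKR211A hearts, 2155, 1944 and 2136 in ILKS343D hearts, and in WT hearts 1940.1 at the lowest, 2354 at the median and 2559 at the highest. All ILKR211A hearts were above all ILKS343D hearts, and the WT hearts spanned nearly both. The mean was 2502 ± 77.8 in ILKR211A hearts (SD, n = 3), 2078 ± 117 in ILKS343D hearts (SD, n = 3) and 2312 ± 236 in WT hearts (SD, n = 6). The log2 fold change was 0.12 in ILKR211A (SE 0.0801, 95% interval -0.05 to 0.29, adjusted p = 0.816 in limma) and -0.15 in ILKS343D (95% interval -0.32 to 0.02, adjusted p = 0.995 in limma) against WT, and 0.27 in ILKR211A against ILKS343D hearts (SE 0.0925, 95% interval 0.07 to 0.47, adjusted p = 0.439 in limma).

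**Figure D2:**
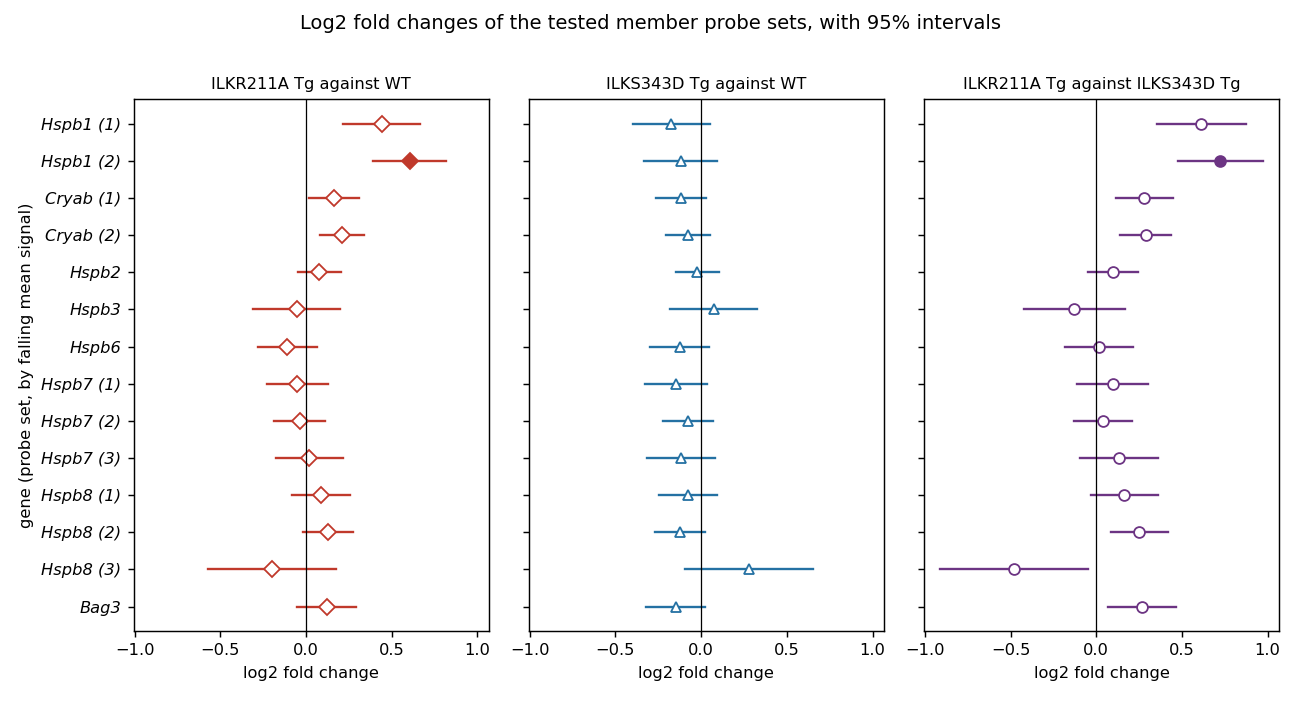
Log2 fold change (x axis) of the 14 tested member probe sets (rows, numbered by falling mean signal within a gene) in ILKR211A against WT, ILKS343D against WT and ILKR211A against ILKS343D hearts; lines are 95% intervals from limma and filled symbols mark an adjusted p below 0.05. The second Hspb1 probe set alone is filled, at 0.60 against WT and 0.72 against ILKS343D, and no symbol is filled in the middle panel.

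Counted over probe sets, 9 of 14 had a log2 fold change above 0 in ILKR211A against WT, where 50.2% of all tested probe sets did, 2 of 14 in ILKS343D against WT, where 50.8% did, and 12 of 14 in ILKR211A against ILKS343D, where 48.9% did. The 3 comparisons share samples, so the counts are not independent of each other. At an unadjusted p below 0.05 in limma there were 4 of 14 in ILKR211A against WT, all higher and from Hspb1 and Cryab, against 7.51% of all tested probe sets in either direction and 3.51% as higher. There were 0 of 14 in ILKS343D against WT, against 3.98%, and 7 of 14 in ILKR211A against ILKS343D, 6 of them higher, against 8.45% and 4.26% as higher. In 3 of 14 probe sets, 1 each of Hspb1, Cryab and Hspb8, all ILKR211A hearts exceeded all WT hearts, against 2.12% of all tested probe sets. In 7 of 14, from 5 genes, all ILKR211A hearts exceeded all ILKS343D hearts, against 7.55%. With 3 mice against 3 an exact permutation test cannot go below 0.1. By gene, on the brightest probe set, the median log2 fold change of the 8 members was 0.08 in ILKR211A against WT, -0.12 in ILKS343D against WT and 0.13 in ILKR211A against ILKS343D, beside medians of -0.00143, -0.000772 and -0.00400 over 11189 genes. Of 7 cardiomyocyte markers 3, 1 and 6 were above 0 in the same comparisons, with medians of -0.02, -0.09 and 0.10. The lean of the members in the 2 comparisons with ILKS343D hearts was thus not particular to them.

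The WT sets served to read the spread among controls, and the lines were also set against each. Between the first and the second WT set 0 of 14 member probe sets were called by limma, against 0.00888% of all tested, and 2 of 14 had an unadjusted p below 0.05, against 7.99%. Those were Hspb6 and Hspb3, with a log2 difference of 0.23 (95% interval 0.08 to 0.39, adjusted p = 0.477 in limma) and 0.28 (95% interval 0.03 to 0.54, adjusted p = 0.592 in limma), first set over second set. For Hspb6 the first set read 7445, 7696 and 8275 and the second set 6359, 7073 and 6479, with no overlap, as in 5.64% of all tested probe sets.

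The Hspb6 values in the transgenic hearts went with the WT set used. Against the first set the log2 fold change was -0.23 in ILKR211A hearts (adjusted p = 0.339 in limma) and -0.24 in ILKS343D hearts (adjusted p = 0.987 in limma), and all 3 hearts of each line were below the set, which held for 6.51% of all tested probe sets in ILKR211A and 4.63% in ILKS343D hearts. Against the second set it was 0.01 in ILKR211A and -0.01 in ILKS343D hearts. Hspb3 likewise had -0.20 and 0.09 in ILKR211A and -0.07 and 0.21 in ILKS343D hearts against the first and the second set. The sign depended on the WT set for Hspb3 in both lines and for Hspb6 in ILKR211A hearts, and in ILKS343D hearts Hspb6 was below 0 against both sets.

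Hspb1 did not vary in this way. Its 1425964_x_at probe set was higher in ILKR211A hearts by a log2 fold change of 0.57 against the first set (adjusted p = 0.0851 in limma) and of 0.64 against the second set (adjusted p = 0.0578 in limma), and the brighter probe set by 0.45 and 0.43. Without pairing of hearts, neither set alone gave a call among the 14 member probe sets in either line, against 0.235% and 0.147% of all tested probe sets in ILKR211A and 0.00444% and 0.0133% in ILKS343D hearts, first and second set. With each line set against the WT set of its own range of heart numbers, the difference of the 2 changes was 0.80 for 1425964_x_at (SE 0.167, 95% interval 0.44 to 1.16, adjusted p = 0.252 in limma) and 0.60 for the brighter probe set (adjusted p = 0.532 in limma), and none of the 14 was called, against 0.0133% of all tested probe sets. Line and range of heart numbers cannot be told apart in the direct comparison of ILKR211A with ILKS343D hearts. Same-numbered hearts of a line and the WT set of its range deviated together weakly. Their r was 0.0709 to 0.209 in the first range and 0.119 to 0.179 in the second. Both Hspb1 probe sets were called in ILKR211A hearts with replicate number within the range as a block. Each block held a transgenic and a WT heart of the same range, so that fit reads ILKR211A hearts against the second WT set alone. The log2 fold changes of the 2 probe sets were 0.43 and 0.64 (adjusted p = 0.0342 and 0.0104 in limma), where 0.209% of all tested probe sets were called. The difference of the 2 changes was not called in that fit (0.80, adjusted p = 0.0521 in limma), where 0.00444% were.

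**Figure D3:**
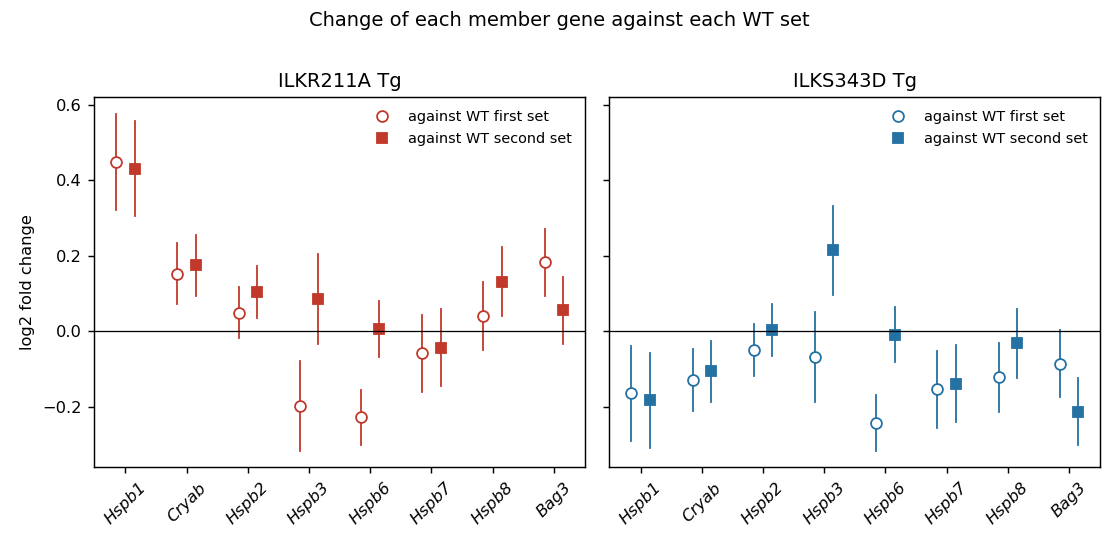
Log2 fold change (y axis) of the brightest probe set of each member gene (x axis) in ILKR211A hearts (left) and ILKS343D hearts (right) against the first WT set (open circles) and the second WT set (filled squares), with lines of 1 standard error from limma; each group has 3 mice. Hspb1 lies at 0.45 and 0.43 in ILKR211A hearts, whereas Hspb6 lies at -0.23 against the first set and 0.01 against the second.

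The members also varied among mice of one genotype. Over the 28 pairs of member genes, deviations from the genotype mean had a Pearson r between -0.707 and 0.871 with a median of 0.305, and 21 pairs were positive. Hspb1 and Cryab moved together most closely (r = 0.871, permutation p = 0.00154, adjusted over the 28 pairs 0.0431; Spearman rho = 0.811, permutation p = 0.00663, adjusted 0.126; n = 12 hearts), and r was 0.894 without the 2 hearts farthest from the Hspb1 median. This was the 1 pair below 0.05 after adjustment, by Pearson r and not by Spearman rho. In each pair the 2 hearts left out were picked on the log2 signal of the first gene, group differences included. They were not picked on the deviations, and for Hspb1 both were ILKR211A hearts. The r without them therefore cannot show the weight of the hearts that deviated most from their genotype mean. Hspb1 with Hspb8 (r = 0.800, permutation p = 0.00587, adjusted 0.0676; rho = 0.790, permutation p = 0.00901, adjusted 0.126; r = 0.798 without the 2 hearts) and Hspb2 with Hspb3 (r = 0.781, permutation p = 0.00724, adjusted 0.0676; rho = 0.685, permutation p = 0.0284, adjusted 0.199; r = 0.791 without the 2 hearts) came next. The lowest was Hspb3 with Bag3 (r = -0.707, permutation p = 0.0448, adjusted 0.179; rho = -0.545, permutation p = 0.14, adjusted 0.356; r = -0.562 without the 2 hearts).

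These values took the 12 hearts as independent within a genotype. With the means of the 4 sets removed, both lines and both WT sets, a choice made after seeing the data, the r of Hspb1 and Cryab was 0.880 (exact permutation p = 0.00154, adjusted over the 28 pairs 0.0432) and the median over the pairs was 0.371, and the likeness of same-numbered hearts was not removed. In each heart both genes of a pair are read on the same array and share its scaling, and after the median of each array was subtracted the r of Hspb1 and Cryab was 0.908, that of Hspb3 and Bag3 was -0.238 and the median over the 28 pairs was 0.628. After that step 10 of the 28 pairs were below 0.05 after adjustment. The median over the pairs thus moved with the scaling, while Hspb1 and Cryab had the highest r under both.

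**Figure D4:**
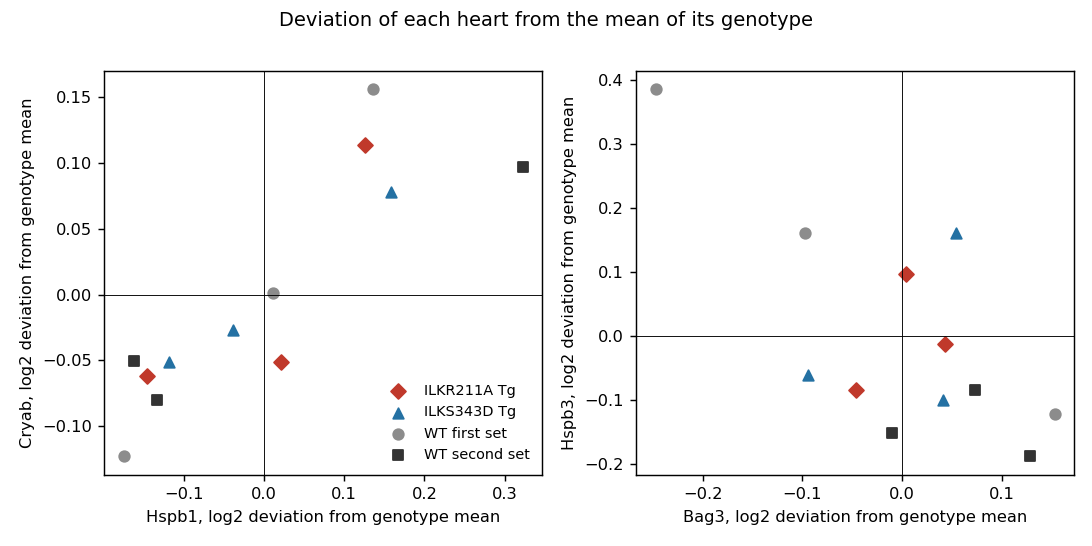
Deviation of each heart from the mean of its genotype, in log2 signal, for Hspb1 (x) and Cryab (y) on the left and for Bag3 (x) and Hspb3 (y) on the right; each point is 1 mouse, with symbols for ILKR211A, ILKS343D and the WT sets. The points rise together on the left (r = 0.871) and run opposite on the right (r = -0.707).

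As a measure of likeness across the study, the log2 signal of Hspb1, Cryab and Bag3 over the 12 hearts was correlated with that of the 11188 other tested genes, group differences included and with no test. Nearest to Hspb1 were Hspd1 (r = 0.955, rho = 0.937), the mitochondrial chaperonin, and Cryab (r = 0.937, rho = 0.944), followed by Clic4, Rbm8a and Rps2 (r between 0.902 and 0.933). Nearest to Cryab were Hspb1 and Tcp1 (r = 0.926, rho = 0.916), a subunit of the cytosolic chaperonin, followed by Laptm4a, Bsg and Rps2 (r between 0.917 and 0.924). Bag3 was nearest to Gba2, Cep85, Mapk8ip3, Pdk2 and Tmem30a (r between 0.901 and 0.943), and the member most like it, Cryab, stood at rank 25 (r = 0.849).

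Other chaperones are given beside the members. Of 9 listed genes of the cytosolic HSP70 and HSP110 family 8 were tested, and 4 rose in ILKR211A against WT hearts, with a median log2 fold change of 0.49. The stress-inducible Hspa1a and Hspa1b, near-identical copies whose probe sets may read each other's transcripts, rose by 1.73 and 1.48 on the log2 scale, the nucleotide exchange factor Hsph1 by 1.28 and the constitutive Hspa8 by 0.49 (adjusted p = 0.00316, 0.00315, 0.00329 and 0.0251 in limma). Hsp90aa1, the inducible HSP90, rose by 0.85 (adjusted p = 0.0044 in limma) and was the 1 tested of 2 HSP90 genes. These 5 genes also passed in ILKR211A against ILKS343D hearts, and no gene of either list passed in ILKS343D against WT hearts. By comparison 0 of 8 members passed on the brightest probe set in ILKR211A against WT hearts, and 14 of 11189 genes were called higher and 9 lower.

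The DNAJ co-chaperones, which load clients on HSP70, had 0 of 8 called and a median of 0.11 in ILKR211A against WT hearts, with 4 at an unadjusted p below 0.05 in limma, beside 841 of 11189 genes. In ILKS343D against WT hearts 0 of the 8 were above 0, and 3 were at an unadjusted p below 0.05 in limma, beside 424 of 11189 genes. Dnajb1 averaged 491 ± 124 in ILKR211A hearts and 301 ± 60.2 in WT hearts (SD, n = 3 and 6; log2 fold change 0.70, adjusted p = 0.194 in limma), and Dnaja1 averaged 938 ± 221 in ILKR211A hearts and 615 ± 75.5 in WT hearts (SD, n = 3 and 6; log2 fold change 0.59, adjusted p = 0.179 in limma). Dnajb2 and Dnaja4 had log2 fold changes of 0.32 and 0.20.

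Of the 14 partners of Hspb8 and Bag3 in chaperone-assisted selective autophagy, 1 rose in ILKR211A against WT hearts, Hspa8, and none fell, with a median of 0.04. The autophagy receptor Sqstm1 stood at 0.16 on the log2 scale (adjusted p = 0.693 in limma) and the dynein light chain Dynll1 at 0.15 (adjusted p = 0.631 in limma). In the rest of the BAG family 0 of 5 genes were called, with Bag2, an inhibitor of Stub1, at 0.24 (adjusted p = 0.639 in limma), Bag6 at 0.06, Bag5 at 0.14 and Bag4 at -0.14.

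Among 10 clients and filaments that the small heat shock proteins hold, Myot, the Z-disc protein myotilin, fell by 1.07 on the log2 scale in ILKR211A against WT hearts, with means of 257 ± 61.7 in ILKR211A hearts and 530.4 ± 58.5 in WT hearts (SD, n = 3 and 6, adjusted p = 0.00325 in limma). The other 9 were not called, and the median of the 10 was 0.00354. Flnc, filamin C and a client of Bag3, stood at 0.45 on the log2 scale (adjusted p = 0.331 in limma) and Vim, vimentin, at 0.23 (adjusted p = 0.514 in limma), while Csrp3, the muscle LIM protein of the Z-disc, was at -0.09 (adjusted p = 0.89 in limma). Hsf4 was the 1 heat shock factor of 4 that was tested (0.15), and Hspb11 the 1 other small heat shock protein of 4 (0.14), and neither was called. Myot was also lower in ILKS343D than in WT hearts, with a mean of 352 and a log2 fold change of -0.60 (adjusted p = 0.995 in limma). Between ILKR211A and ILKS343D hearts its log2 fold change was -0.46 (adjusted p = 0.462 in limma), which was not called.

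Hspb1, Cryab and Hspb6 are also made by smooth muscle, and these arrays measure bulk tissue, in which fewer cells of a type and less RNA per cell cannot be told apart. The 4 tested of 5 smooth muscle markers had log2 fold changes between 0.19 and 0.37 in ILKR211A against WT hearts with a median of 0.28, and 0 were called (Smtn 0.28, Tagln 0.37, Acta2 0.29, Myh11 0.19; adjusted p between 0.574 and 0.895 in limma). The 5 markers summed to between 3512 and 3809 in ILKR211A hearts, 2795 and 3763 in ILKS343D hearts and 2212.5 and 3306 in WT hearts, and the part of smooth muscle in the Hspb1 result was not tested. The fat marker Adipoq, below the limit, averaged 86.2 in ILKR211A, 36.9 in ILKS343D and 26.3 in WT hearts. Ucp1, also a fat marker below the limit, averaged 24.0 in ILKR211A, 5.66 in ILKS343D and 6.06 in WT hearts. The part of fat in the Hspb1 result was not tested either. Fabp4, the 1 listed fat marker of 5 that was tested, averaged 6931 ± 623 in ILKR211A, 7085 ± 132 in ILKS343D and 7200.3 ± 575 in WT hearts (SD, n = 3, 3 and 6), with a log2 fold change of -0.06 in ILKR211A against WT hearts (adjusted p = 0.923 in limma). Fabp4 read far above Adipoq and Ucp1 in every group, and whether it reports fat in these hearts was not tested. Cardiomyocyte markers had a median log2 fold change of -0.02 in ILKR211A and -0.09 in ILKS343D against WT hearts, with 0 of 7 called in each.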

How the data were processed

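The authors deposited MAS5 signal intensities on a linear scale, 1 array per heart, scaled so that the trimmed mean of every array, which drops 2% of features at either end, is the same (150 here). Neither the MAS5 version nor detection calls are stated. The log2 of each signal was used with no offset, and 64 array controls were left out. Of 45037 probe sets the annotation gives 1 gene for 34945, several for 932 and none for 9160, and 22519 were tested, those whose log2 signal averaged 5.44 (the median) or more. A gene is summarised by its brightest probe set (11189 genes).

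Groups were compared with limma 3.58.1 in R 4.3.3 (linear models, empirical Bayes with a trend, 3 genotypes, 1 spread over the 12 arrays, two-sided, Benjamini-Hochberg). Single values were also compared with exact permutation tests (84 splits for 3 against 6 mice, 20 for 3 against 3), and pairs of genes with 100000 permutations within genotype. Mice are biological replicates by the series' design text. The procedure was tested on simulated data. For ILKR211A against WT it recovered 50.7% of 1.5-fold changes and 85.6% of 2-fold changes, and 5.08% of the calls were false. Recovery depends on the share of changed genes and the spread that were simulated, which are not given here. The percentages therefore cannot be read as the share of such changes found in these data, where 0.204% of the tested probe sets were called. Replicate numbers were checked for pairing by the correlation of deviations from group means. All 3 pairs of ILKR211A with the second WT set were above 0.1 (0.119 to 0.179), and 5 of 18 pairs were in all. The pairs of ILKS343D with the first WT set had r of 0.0709 to 0.209, and every pair across the ranges of heart numbers was negative. The pairing comes from the titles and the data, and same-numbered hearts of a line and the WT set of its range also have consecutive heart numbers. The main fit, the permutation tests and the correlations did not use the pairing.

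The members and lists were chosen with earlier results of these data known. The genes named are the members, up to 4 genes of each list with the smallest p in ILKR211A against WT, the 5 genes most like Hspb1, Cryab and Bag3, and Ilk. Adipoq and Ucp1 were named after their values were seen. Alternatives covered scaling, an offset of 16, blocks, array weights, filters, the WT set, which arrays were fitted, the prior variance, the threshold and each mouse left out. The files name no genome build, and RefSeq tables of GRCm38.p6 gave names and promoters. Python 3.11.15 with matplotlib 3.10.9 made the figures.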

Additional observations from a re-analysis of the deposited data

Results flagged for a closer look

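The Hspb1 probe set 1425964_x_at differed between the lines by 0.72 on the log2 scale, the change in ILKR211A less the change in ILKS343D hearts (adjusted p = 0.0203 in limma), and this difference was not called when each line was set against the WT set of its own range of heart numbers. In the WT group, 15 sets of 6 values were examined for a single distant heart and 2 were found, where chance gives about 1 in 20. The Hspb7 probe set 1421289_at read 2917 in WT first set replicate 2, with the nearest WT heart at 3694 and a gap of 0.682 of the range. The dim Hspb8 probe set 1456434_x_at read 324 in WT second set replicate 1, with the nearest WT heart at 223 and a gap of 0.665 of the range.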

How the results depend on the processing

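In ILKR211A against WT hearts 1 member probe set was called. With arrays centred on their median, with no trend in the prior variance, or with either WT set alone and no block, 0 were called, and 2 with quantile normalization (1 each of Hspb1 and Cryab) and 4 at an unadjusted p below 0.05. Leaving out 1 mouse gave 0 to 2. The replicate block within the range of heart numbers, chosen after seeing the data, reads ILKR211A hearts against the second WT set alone, and 2 were called. In ILKR211A against ILKS343D hearts 1 was called. With no trend, with the compared groups alone or, for the difference of the 2 changes, with the replicate block within the range, 0 were called, and 2 with array weights, 3 with quantile normalization (2 of Hspb1 and 1 of Cryab) and 7 at an unadjusted p. Leaving out 1 mouse gave 0 to 2. Between the WT sets 2 were called at an unadjusted p. In ILKS343D against WT hearts 0 were called under each alternative. The replicate block by number alone left the counts at 1, 0, 1 and 0. The Hspb1 probe set 1425964_x_at kept log2 fold changes of 0.54 to 0.68 against WT (adjusted p 0.00739 to 0.137) and 0.64 to 0.84 against ILKS343D hearts (adjusted p 0.0097 to 0.122). Over 702 values of single probe sets under the alternatives, 677 kept their status as called or uncalled, 12 became called, 13 lost a call and 0 called values reversed. All 13 losses fell on 1425964_x_at, the only one with a call to lose, with 26 values against WT and 24 against ILKS343D hearts. The 12 include values read at an unadjusted p. They also include the main calls of 1425964_x_at, which was entered again as an alternative to the brighter Hspb1 probe set. Among uncalled values 20 changed sign. The cause of these moves was not tested. No detection calls were used, so the dim probe sets of Hspb8 and Cryab carry no test of presence.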
